A study of Caenorhabditis elegans with 6 samples.

Results

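The regions described here are 217 editing-enriched regions on the arms of the 5 autosomes of the nematode Caenorhabditis elegans. An editing-enriched region is a stretch of genome where A-to-G changes cluster in sequenced RNA. The 217 regions were chosen by list membership and position. In the list that the aligner GNUMAP gave from unique and repeat reads together, they are the regions with the midpoint in the first or last 25% of an autosome and an overlap of 1 bp or more, on either strand, with a GNUMAP region from uniquely placed reads alone. With them, 209 regions on the arms and 238 in the autosome centres and on chromosome X make up the whole list. The 209 overlapped no GNUMAP region from unique reads alone and are called repeat-read-only here, although unique reads may lie in them. Of the 238, 65 overlapped a unique-read region. Being on an arm and in a unique-read list is therefore the choice itself and not a result.

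The lists come from immunoprecipitated double-stranded RNA (dsRNA) of 6 samples, with 1 sample for each group. J2, an antibody that recognises dsRNA whatever its sequence, was used on mixed-stage worms, once for wild-type N2 and once for dcr-1(mg375), a strain with a mutant allele of the Dicer gene. Rabbit antibodies to RDE-4, which binds dsRNA in RNA interference, and to DCR-1, the worm's Dicer, which cuts it, were each used on embryos of N2 and of dcr-1(mg375). Whole worms were grown at 20 °C, so a region may come from any tissue. The authors combined the reads of all 6 samples before listing regions. No region can be assigned to a strain, stage or antibody, no test over samples was possible, and the read depth behind a region is unknown.

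ADAR enzymes change adenosine to inosine in dsRNA, and sequencing reads inosine as guanosine, so clustered A-to-G changes mark transcripts that were double-stranded. Such dsRNA can form within a transcript when inverted repeats fold back into a hairpin, or between transcripts of opposite strands. The arms of C. elegans autosomes hold more repeats and recombine more than the gene-dense centres. The strand of a region is the one given in the list. Host genes, exons, introns and sequences of the regions were not analysed here, because the annotation used was of build WBcel235 and the regions are in build ce10. Intervals are exact intervals at 95% that cover the counting of regions alone. Regions are not replicates, and neighbours or overlapping pairs share a locus, so shares are given as descriptions without p-values.

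Of the 10 arms, the left arm of chromosome I and the right arm of chromosome III held most regions for their length. The left arm of I had 42 regions (19.4%, 14.3 to 25.2%) at 11.2 per Mb. The right arm of III had 35 (16.1%, 11.5 to 21.7%) at 10.2 per Mb. Over all arms the density was 5.26 per Mb, and the lowest was 2.29 per Mb on the right arm of IV, with 10 regions. In the whole list the left arm of I also held most regions (68) and the right arm of IV fewest (25). By count, the right arm of III, with 49, came there after the right arm of II (52) and the left arm of IV (51). Those arms are longer, at 3.82 and 4.37 Mb against 3.45 Mb, so per Mb the right arm of III came before both. The 2 arms of a chromosome were not alike. Chromosome I had 42 regions on the left and 13 on the right, and chromosome II had 12 and 23. On chromosome III there were 22 and 35, on IV 18 and 10, and on V 26 and 16. Left arms were thus the richer ones on I, IV and V and right arms on II and III, and the sums were 120 on the left and 97 on the right (44.7%, 38.0 to 51.6%). Without chromosome I, the right arms held 51.85%. Repeat-read-only regions numbered 26 on the left arm of I and 16 on the right, and 18 and 29 on II. They had 14 on each arm of III, 33 and 15 on IV, and 17 and 27 on V. Their richer arm was thus the same on I, II and IV and the other one on V. In the whole list, which includes both groups, it was the same on I to IV, and V had 43 on each arm. Which arm was richer on I, II and IV was therefore not particular to the regions chosen here.

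Chromosome III had 57 regions (26.3%, 20.5 to 32.6%) and chromosome I had 55 (25.3%, 19.7 to 31.7%), at 8.27 and 7.30 per Mb of arm. Chromosome V had 42, II had 35 and IV had 28. Chromosomes V, II and IV had 4.01, 4.58 and 3.20 regions per Mb of arm. Counted as summed length the order was another one. Chromosome II led with 22.05 kb, of which 13.5 kb lay on its left arm in 12 regions, against 19.3 kb on I and 19.2 kb on III. Chromosomes V and IV held 13.04 and 8.42 kb. The place of II in this order rests on a few long regions, which are described with their limits below.

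**Figure D1:**
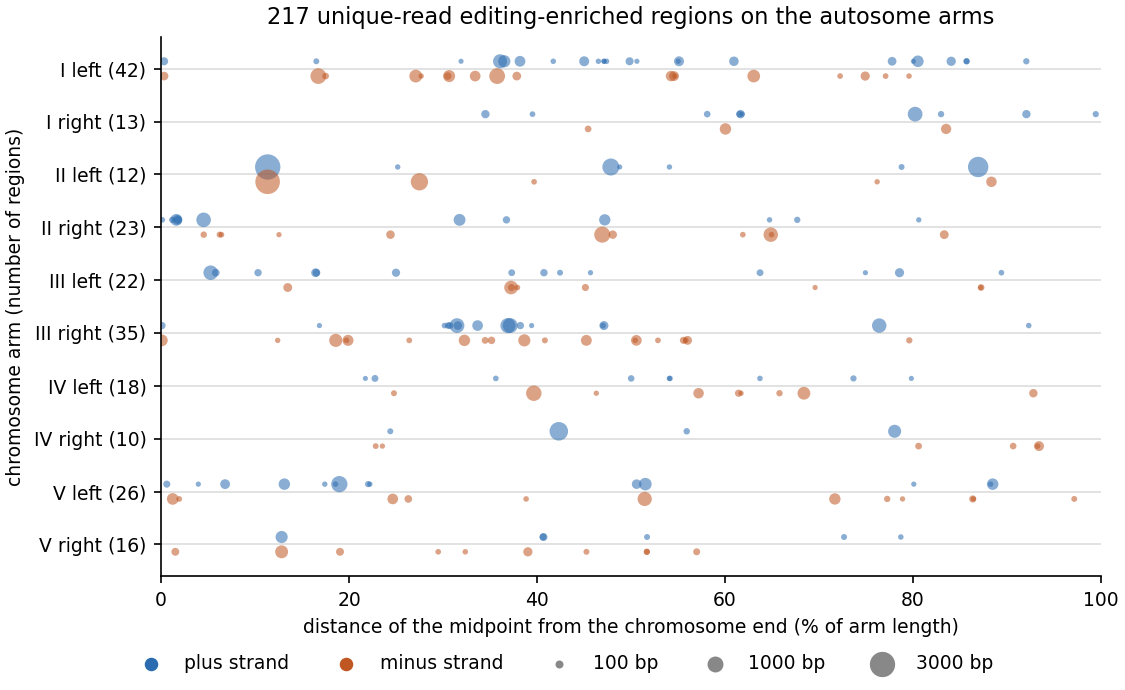
Position of the 217 regions along the 10 autosome arms, from the chromosome end (0%) to the limit of the arm (100%), with the number of regions per arm in parentheses. Each point is a region, coloured by strand and sized by length. The left arm of I (42 regions) and the right arm of III (35) are the most crowded, and the pair of large points on the left arm of II are the regions of 3603 and 3378 bp.

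Along the arms the regions were spread over the whole length. From the end inward, the segments of 25% of arm length held 53 (24.4%), 71 (32.7%), 50 (23.0%) and 43 regions (19.8%). The repeat-read-only regions of the same arms gave 51, 69, 39 and 50. By arm, the share in the outer 50% was highest with 26 of 35 regions on the right arm of III (74.3%, 56.7 to 87.5%), and lowest with 3 of 13 on the right arm of I (23.1%, 5.04 to 53.8%). Of all regions, 12 had their midpoint within 100 kb of a chromosome end. A pair on opposite strands at the right end of III was nearest, at 3.05 and 3.13 kb. These regions ran from 13780065 to 13780755 (minus strand, 691 bp, score 4) and from 13780225 to 13780440 (plus strand, 216 bp, score 8). A plus-strand region of 88 bp at the right end of II, from 15274318 to 15274405, lay at 5.06 kb from the end. Distances to right ends are approximate, since the length of each chromosome was taken from the last annotated base of WBcel235. The region farthest from an end was on the left arm of V from 5082288 to 5082389 (minus strand, 102 bp), at 5082 kb.

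The rule's limit at 25% of the chromosome fell in a gap between unique-read regions. The nearest one inside was on the right arm of I from 11325159 to 11325282 (124 bp, score 7), 20.9 kb from the limit, and the next was the one at 5082288 on V, 148.3 kb from it. Just outside, at 101.1 and 101.9 kb, were regions on IV from 4474523 to 4474637 (plus strand, 115 bp, score 8) and from 4475257 to 4475391 (minus strand, 135 bp, score 8). No member overlapped a unique-read region by only a few bp. The smallest overlap was 52 bp, the whole length of the region, which is also the shortest length in each list. The nearest region without overlap was 51 bp away, on I from 2060179 to 2060509.

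Most of the regions were short, and a small number were over a kilobase. The median length was 175 bp (134 to 220), the lower and upper quartiles were 85 and 508 bp, and the range was 52 to 3603 bp. There were 69 regions of 100 bp or less (31.8%, 25.7 to 38.4%) and 21 of 1000 bp or more (9.68%, 6.09 to 14.4%). These 21 made up 39.5% of the summed length of 82.07 kb. Repeat-read-only regions of the same arms had a median of 103 bp (94 to 117), with 101 of 209 at 100 bp or less. Regions in the centres and on X had a median of 155.5 bp (129 to 210), and the 65 of these that unique reads gave had one of 236 bp (135 to 512). The median over the whole list was 133 bp. The upper quartiles were 508 bp on the arms for unique-read regions, 287 bp for repeat-read-only regions and 606 bp in the centres and on X.

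**Figure D2:**
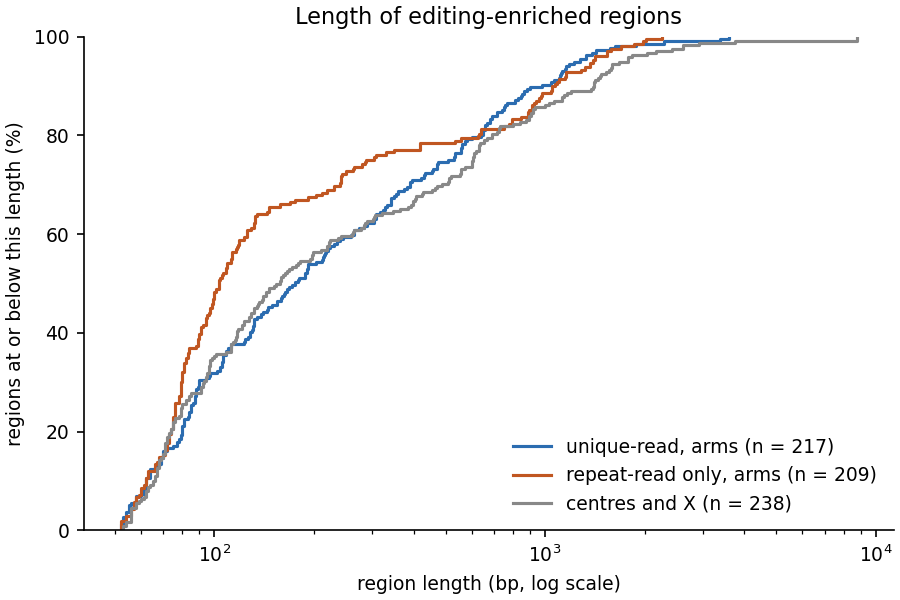
Cumulative share of regions (%) by region length (bp, log scale) for the 217 unique-read regions on arms, the 209 repeat-read-only regions on arms and the 238 regions in centres and on X. The repeat-read-only curve rises first, with 48.3% at 100 bp or less against 31.8% of the unique-read regions on arms.

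The longest region of each arm shows the size and spread of these loci. On chromosome I they were a minus-strand region on the left from 1346659 to 1347992 (1334 bp, score 41) and on the right a plus-strand one from 12048743 to 12049893 (1151 bp, score 8). Chromosome II had on the left a plus-strand one from 431768 to 435370 (3603 bp, score 147) and a minus-strand region on the right from 13485830 to 13487212 (1383 bp, score 59). Both longest regions of chromosome III were on the plus strand, on the left from 181375 to 182489 (1115 bp, score 9) and on the right from 12511095 to 12512320 (1226 bp, score 13). Regions of nearly the same length could thus differ widely in score. Chromosome IV had one on the minus strand from 1733668 to 1734939 (1272 bp, score 23) and one on the plus strand from 15641957 to 15643836 (1880 bp, score 20). Those of V were on the plus strand from 991403 to 992828 (1426 bp, score 16) and on the minus strand from 20250987 to 20251851 (865 bp, score 92). Except on the left arm of II, the right arm of III and the left arm of IV, a Novoalign unique-read region overlapped the longest one.

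Each region carries a deposited score, at least 2 and always whole, with a meaning not given in the sources used here. Its median was 4 (4 to 6), with quartiles of 3 and 11 and a highest value of 147. The lowest score of 2 was given to 49 of the 217 regions (22.6%), and 33 had a score of 20 or more (15.2%). Over the whole list these shares were 21.2% and 14.0%, and the unique-read regions of the centres and X had 16.9% and 38.5%. Longer regions had higher scores (Spearman's rho 0.73 over 217 regions). Both values come from the same calling, with a rule not given in the sources used here, so the relation may follow from it. The median score per 100 bp was 3.45 (3.12 to 3.70), against 3.75 for repeat-read-only regions on arms and 4.24 for the unique-read regions of the centres and X. It was lower in longer regions (Spearman's rho -0.28 over 217 regions), and the groups differ in length, so these medians are not compared at equal length.

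Among the 100 regions of 200 bp or more, the highest score per 100 bp was 11.3, on the left arm of I from 1149056 to 1149285 (minus strand, 230 bp). The region from 1154600 to 1155338 on the same strand, 5314 bp further on, had 9.20. Another minus-strand region of this arm, from 1258883 to 1259443 (561 bp), had 9.98. These 3 regions thus lay on the same strand between 1149056 and 1259443. The other high values were 10.6 for the region on V from 20250987, and 9.22 for a plus-strand region on III from 1403865 to 1404081 (217 bp). The lowest values, chosen after they were seen, were 0.227 on IV from 14079846 to 14080726 (plus strand, 881 bp, score 2), 0.375 on I from 2044207 to 2044739 (533 bp, score 2) and 0.409 on III from 1282887 to 1283864 (978 bp, score 4). Long regions therefore included some with a score as low as that of the shortest ones.

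Adding repeat reads left most of the regions as they were. Exactly the same start, end and strand were listed with unique reads alone for 184 of the 217 (84.8%, 79.3 to 89.3%). The share over the whole list was 33.7%, a figure that includes the regions that no unique-read region overlapped. Since the choice required a unique-read region, a high share follows in part from it. For the 65 unique-read regions of the centres and X, for which the choice was the same, the share was 40 of 65 (61.5%, 48.6 to 73.4%). Of the 184, 172 also had the same score, 11 had a higher one and 1 a lower one. The largest rise was from 5 to 14, on III from 12695007 to 12695333. Unique-read regions on the same strand covered 84.7% of the summed length.

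The other 33 regions did not have the same limits. With repeat reads 29 were longer, by 3 to 3115 bp with a median of 47 bp, and in 15 of them by 50 bp or less. A single region, the one on I from 1258883, was shorter, at 561 against 562 bp. In 3 cases the unique-read region lay on the opposite strand alone. These were on I from 11972 to 12254 (plus strand, 283 bp), on II from 15105918 to 15106055 (minus strand, 138 bp) and on V from 20251033 to 20251784 (plus strand, 752 bp), so for these the listed strand itself had no unique-read region. The 5 largest extensions made up 9.57 of the 11.4 kb added to the 29 regions, or 84.1%.

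These extensions were at 4 places. On the left arm of II, the minus-strand region from 431302 to 434679 (3378 bp, score 122) had 263 bp from unique reads and 3115 bp added. The plus-strand region from 431768 to 435370 across from it had 1363 bp from unique reads and 2240 bp added. These are the longest and highest-scoring of the 217 regions, and more of their length came with repeat reads than with unique reads. Further along the same arm, the plus-strand region from 3319821 to 3322114 (2294 bp, score 46) had 81 bp from unique reads. A plus-strand region on III from 11149984 to 11151087 (1104 bp, score 6) had 53 bp, and the region on IV from 15641957 had 931 of 1880 bp. In these long regions, unlike in the 184, the unique-read part was a fraction of the listed stretch.

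**Figure D3:**
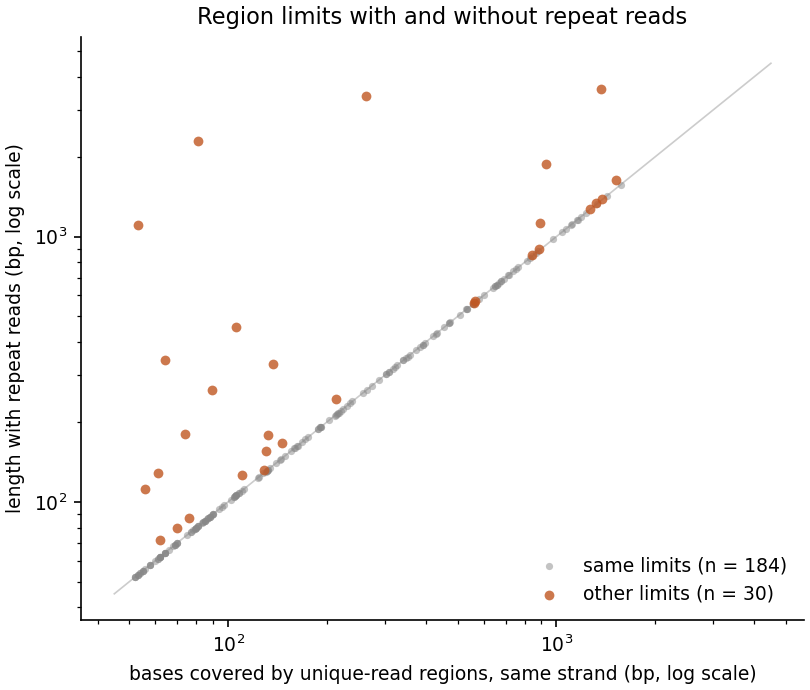
Length of each region with repeat reads against the bases in it that unique-read regions of the same strand covered (both in bp, log scales), for the 184 regions with the same limits (grey) and the 30 with other limits and a unique-read region on the same strand (red). Most points lie on the line of equal length, and the extended regions lie above it, up to 3603 bp.

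Plus and minus strands were similar in number. There were 116 plus-strand regions (53.5%, 46.6 to 60.2%) with a median length of 161.5 bp (124 to 220), and 101 minus-strand regions with one of 191 bp (134 to 309). The right arm of I, with 10 plus and 3 minus regions, and the left arm of III, with 14 and 8, were the most uneven.

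Regions on the arms that unique reads gave were listed on a single strand for the most part. Of the 217, 13 were overlapped by a region of the list on the opposite strand (5.99%, 3.23 to 10.0%), where the share was 24.5% over the whole list. It was 70 of 209 for repeat-read-only regions on the same arms (33.5%, 27.1 to 40.3%). It was 25 of 65 for the unique-read regions of the centres and X (38.5%, 26.7 to 51.4%). The interval on the arms lay below the other 2, and both members of a pair are counted, so these intervals, which treat regions as independent, are too narrow. The share on the arms was 9.17% among regions at or above the median length and 9.16% among those at or above the median score. With regions of either strand merged within 2 kb it was 3.43% of loci. That lower value follows from merging, which joins an overlapping pair of the 217 into a single locus. No test of the difference was made.

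The 13 regions formed 7 overlapping pairs, 6 between regions of the group and 1 with a repeat-read-only region. The pair at 431302 and 431768 on II overlapped over 2912 bp. The region from 3319821 on II held the whole of a repeat-read-only minus-strand region from 3319908 to 3321922 (2015 bp, score 38). On V, the minus-strand region from 20250987 (score 92) held the plus-strand region from 20251033 (score 19) over 752 bp. In the last of these the strands differed in score, while the pair at 431302 had similar ones (122 and 147). At the left end of I, a minus-strand region from 11917 to 12248 (332 bp, score 14) and the plus-strand region from 11972 (score 3) overlapped over 277 bp. The pair at the right end of III overlapped over 216 bp. The remaining pairs were on II, over 138 bp at 15105918 within the plus-strand member that spans 15105839 to 15106966 (1128 bp, score 35), and on V, over 93 bp between regions from 18218152 to 18218257 and from 18218165 to 18218268. In 4 of the 7 pairs both regions, and in 1 more a single region, were overlapped by a Novoalign list.

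Counted over both strands, with overlapping regions included, the regions also had fewer near neighbours in the list. Another region within 2 kb was found for 30 of 217 (13.8%, 9.53 to 19.1%), where the share was 41.7% over the whole list. It was 114 of 209 for repeat-read-only regions on arms (54.5%, 47.5 to 61.4%) and 34 of 65 for unique-read regions of the centres and X (52.3%, 39.5 to 64.8%). Of the 30, 24 had another of the 217 regions that near and 6 had a repeat-read-only region alone. The median gap to the nearest region of any kind was 16772 bp on the arms for unique-read regions, 1091 bp for repeat-read-only regions and 1095 bp for unique-read regions of the centres and X. In the same order, 10.6%, 52.6% and 49.2% had an opposite-strand region within 2 kb. The median gaps to the nearest same-strand region were 35598, 37201 and 175872 bp. By these medians the 217 regions were not farther apart on the same strand than the other groups. Within 2 kb, however, fewer of them had a same-strand region than repeat-read-only regions did, as given below. Among the 217 alone, the median gap to the nearest other one was 27.5 kb, with quartiles of 5.78 and 103.4 kb and a highest value of 614.6 kb.

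**Figure D4:**
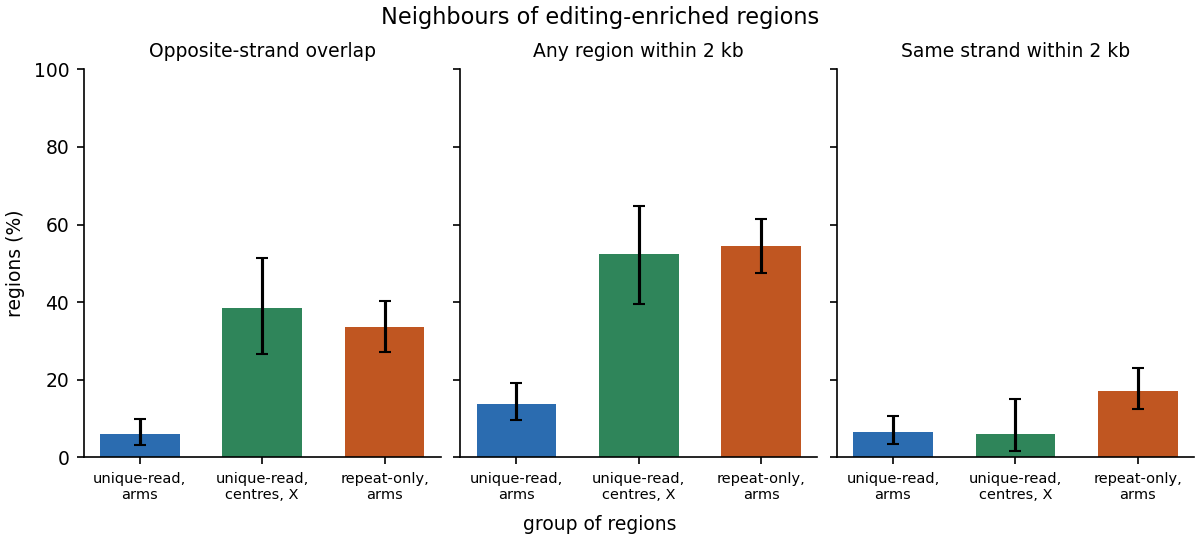
Share of regions (%) with an overlapping region on the opposite strand, with any region within 2 kb and with a region on the same strand within 2 kb, for unique-read regions on arms (217), unique-read regions in centres and on X (65) and repeat-read-only regions on arms (209). Bars are shares and lines are exact intervals at 95%; the first group is at 5.99%, 13.8% and 6.45%.

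Neighbours on the same strand were counted apart. A region on the same strand within 2 kb was found for 14 of 217 (6.45%, 3.57 to 10.6%), where 12.2% of the whole list had one. For repeat-read-only regions on the arms it was 36 of 209 (17.2%, 12.4 to 23.0%), with an interval above that of the 217. Among the unique-read regions of the centres and X it was 4 of 65 (6.15%, 1.70 to 15.01%), close to the arms. In none of the 4 lists were regions of the same strand closer than 1003 bp, while regions of opposite strands could overlap, so the shortest gaps cannot be compared between strands. Between 1001 and 10000 bp, where both kinds occurred, there were 30 same-strand and 7 opposite-strand pairs among the 217 regions. Repeat-read-only regions on the arms had 30 and 40 pairs in this range, regions of the centres and X had 36 and 40, and the whole list had 114 and 113. The 65 unique-read regions of the centres and X had 2 and 0, too few to set beside the arms. Pairs within the 217 that lay a few kilobases apart were therefore mostly on the same strand, in 30 pairs of 54 regions with a median gap of 3609 bp. Pairs of such a region with one of another group were left out, and only the whole list includes them. The strands of all listed neighbours of the 217 may thus divide otherwise. No test of a difference was made, pairs that share a region are not independent, and the pattern is not shown to be particular to the arms.

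The 5 closest same-strand pairs were at 5 places. On V, minus-strand regions from 18218165 to 18218268 and from 18219329 to 18219460 were 1060 bp apart. On I, plus-strand regions of 112 and 128 bp from 3228822 and 3230098 were 1164 bp apart, and those of 61 and 52 bp from 1774947 and 1776370 were 1362 bp apart. On III, minus-strand regions of 978 and 188 bp from 1282887 and 1285030 were 1165 bp apart, and those of 55 and 160 bp from 3005170 and 3006518 were 1293 bp apart. The members of a pair were thus of similar length in some cases and not in others.

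At a larger scale the regions were thinly spread. Of 418 windows of 100 kb on the arms, 139 held a region, and 87 of these held 1. The windows with most regions held 5, and 5 windows had 4 or more, with 22 regions in all. On the left arm of I, the window from 2000001 to 2100000 held 5 regions of 62 to 533 bp, 3 of them overlapped by Novoalign and with 2 on the plus strand. On the right arm of II, the window from 15200001 to 15300000 held 5 regions of 88 to 715 bp. All 5 of these were on the plus strand and none was overlapped by Novoalign. The window from 1700001 to 1800000 on I held 4, all on the plus strand and of 52 to 81 bp, and again none was overlapped by Novoalign. It ties at 4 with the windows of the right arm of III from 12500001 and from 12600001, where Novoalign overlapped 1 and 3 regions.

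Overlap by the other aligner, Novoalign, was not used in choosing the regions, although all lists rest on the same reads. A Novoalign unique-read region overlapped 78 of the 217 (35.9%, 29.6 to 42.7%), where 15.4% of the whole list had such an overlap. Either Novoalign list overlapped 97 (44.7%, 38.0 to 51.6%), against 27.1% of the whole list. The 65 unique-read regions of the centres and X had shares of 32.3% (21.2 to 45.1%) and 44.6% (32.3 to 57.5%). Among the regions that unique reads gave, the intervals of the arms and of the rest of the genome thus overlapped. Of the 209 repeat-read-only regions on arms, 27 were overlapped by either list (12.9%, 8.69 to 18.2%). Both Novoalign lists overlapped 78 of the 217 regions, the list with repeat reads alone 19, and neither list 120.

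The share overlapped was higher in the longer length classes. In the 4 length classes of 52 to 85, 86 to 175, 179 to 508 and 532 to 3603 bp, which hold 55, 54, 54 and 54 regions, either Novoalign list overlapped 25.5%, 27.8%, 59.3% and 66.7%. In the same classes the shares over the whole list, which includes these regions, were 11.1%, 17.4%, 42.02% and 45.6%. Repeat-read-only regions on arms had 2.60%, 9.52%, 8.33% and 37.8% in 77, 63, 24 and 45 regions, with no rise at 179 to 508 bp. The unique-read regions of the centres and X had 21.4%, 40%, 72.7% and 48% in 14, 15, 11 and 25 regions, with the longest class below the one before it. In each group the longest class was thus above the shortest, but the steps between them differed. For the unique-read regions on arms, the intervals of the lower 2 classes (14.7 to 39.0% and 16.5 to 41.6%) did not reach those of the upper 2 (45.03 to 72.4% and 52.5 to 78.9%). A longer region has more bases in which an overlap can fall, and no correction for that was made. The 97 overlapped regions had a median length of 348 bp (244 to 471) and a median score of 9, and the 120 others 107 bp (90 to 132) and 3.5. The score per 100 bp was 3.23 (2.87 to 3.77) and 3.51 (3.12 to 3.75), with intervals that overlap.

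**Figure D5:**
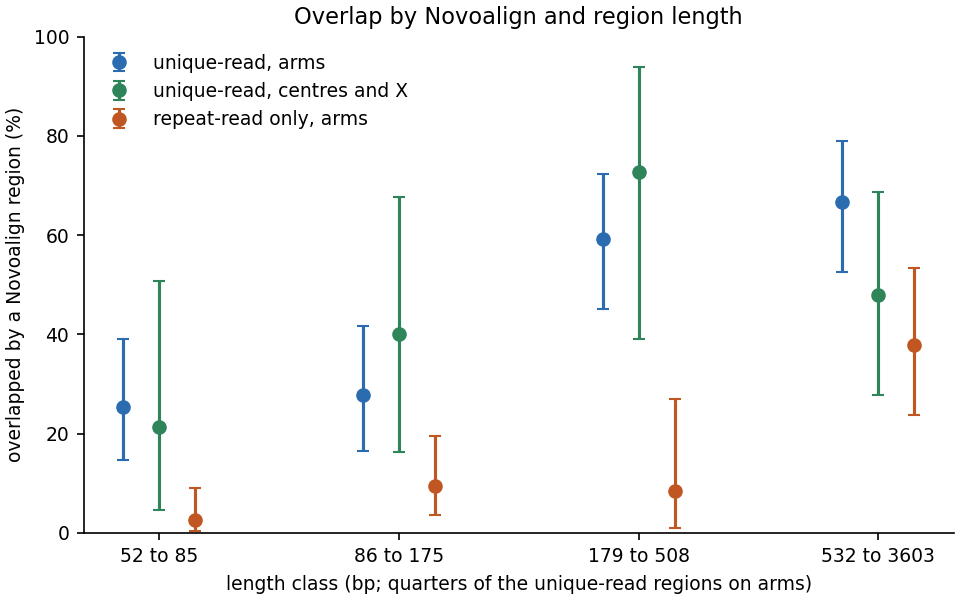
Share of regions overlapped by a region of either Novoalign list (%) in 4 length classes (bp), for unique-read regions on arms, unique-read regions in centres and on X, and repeat-read-only regions on arms. Points are shares and lines are exact intervals at 95%; the share on arms for unique-read regions goes from 25.5% in the shortest class to 66.7% in the longest.

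Where Novoalign listed a region, it lay on the same strand with few exceptions, but most differed in at least 1 limit. Of the 78 regions overlapped by its unique-read list, 76 were overlapped on the same strand. Both limits were the same to the base in 17, and at least 1 limit was the same in 48. The Novoalign region was longer in 22 cases and shorter in 37. Same-strand Novoalign regions covered a median of 97.0% (86.3 to 100%) of the length, with a lower quartile of 74.1%, and covered 31 regions in full. The lowest cover was 1.86%, and bases of Novoalign regions outside the GNUMAP region do not enter these shares. In the other direction, 77 of the 97 Novoalign unique-read regions on the autosome arms overlapped the 217 regions (79.4%), and 104 of 176 in its list with repeat reads (59.1%).

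Length did not decide every case. The 3 longest regions without any Novoalign region were on II from 1827302 to 1828872 (plus strand, 1571 bp, score 60), on IV from 1733668 and on III from 12511095. The 3 shortest that both Novoalign lists overlapped were on the plus strand with a score of 2, on I from 3015883 to 3015935 (53 bp), on III from 13202827 to 13202884 (58 bp) and on III from 1574543 to 1574604 (62 bp). For the first and the last of these, the Novoalign unique-read region had the same length, and for the other it was 117 bp.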

How the data were processed

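RNA bound by J2, RDE-4 or DCR-1 antibodies was fragmented to 150 to 200 nt on average before small RNA library preparation, per the labels' protocols. Reads of the 6 samples were combined before regions were listed, per the series' design text. Build ce10, SAMtools 0.1.19 and Novoalign 2.07.13 are named in the submitters' processing notes. The calling rule, GNUMAP's version and read depth were not given in the sources used here. Each of the 4 lists deposited by the authors gives a position, a strand and a score per region; the score is a whole number with a meaning not given in the sources used here.

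Comparisons used scipy 1.17.1, pandas 2.3.3 and numpy 2.4.6 in Python 3.11.15, with plots from matplotlib 3.10.9. Positions are 1-based ce10 coordinates. Regions overlapped if they shared 1 bp, whatever the strand, unless a strand is named. The last annotated base in WBcel235 stood for the length of each chromosome. Shares have Clopper-Pearson intervals and medians have order-statistic intervals, both at 95%. The functions were tested on simulated regions.

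The regions named follow rules for the longest, the nearest, the most extended, the highest-scoring and the most crowded. The members, these rules and the comparisons were chosen with earlier results of these data known. Alternatives were wider or moved arm limits, stricter overlap, merging within 2 kb, longer or higher-scoring regions alone, and leaving out a chromosome.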

Additional observations from a re-analysis of the deposited data

How the results depend on the processing

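Moving the arm limits by 10 kb, widening the outer segments, asking for overlap on the same strand or over 50% of the shorter region, and leaving out chromosome III kept the summary values within their intervals or, for the number of regions, within 1.5 times; the share on chromosome III has no value without it. Regions at or above the median length numbered 109, with a median of 508 bp, and Novoalign unique reads overlapped 55.05% of them, either Novoalign list 63.3%, and 78.9% had the same limits with unique reads alone. Regions at or above the median score numbered 131, with a median of 327 bp, and the same shares were 44.3%, 54.2% and 78.6%. Both sets are smaller by construction, and the first is longer by construction. Merged within 2 kb, 3.92% of loci had a further region within 2 kb, since merging removes near neighbours. Without chromosome I, an alternative added after seeing the data, 51.85% of regions were on right arms and 35.2% on chromosome III. The share overlapped on the opposite strand, 5.99%, was 3.43% with loci merged, 9.17% among longer and 9.16% among higher-scoring regions, all inside its wide interval. The lower value with loci merged follows from joining each overlapping pair of the 217 into a single locus. Of 89 comparisons of a value with its alternative, 76 were within these limits. The 76 include all comparisons for limits moved by 10 kb and for the 50% overlap. These settings left the same 217 regions, so no value could change under them. No paired analysis was possible because each group had 1 sample and all reads were pooled. Read depth is unknown, so a place without a listed region may hold dsRNA that was not detected.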
